A study of Mus musculus with 22 samples.

Results

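The 10 genes described here encode the proteins that recognise the branch site of an intron and the end of the intron next to it: Sf3a1, Sf3a2 and Sf3a3 of the SF3a complex, Sf3b1, Sf3b2, Sf3b3 and Sf3b4 of the SF3b complex, both subunits of U2AF (U2af1 and U2af2), and Sf1. They were taken by gene symbol, and the set was chosen with earlier results of these data known. Each had exactly 1 row among the 15705 genes measured at 6 months and 1 among the 15192 measured at 12 months. The measurement was an Sd score per gene and library of mouse cortex, a linear ratio deposited to 3 decimals. It is taken here as a splicing deficiency score, higher where more of a gene's signal is unspliced, but no source used here gives its formula.

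An intron is first marked by SF1, which binds the branch-point sequence, and by U2AF, whose large subunit holds the polypyrimidine tract and whose small subunit reads the AG at the 3′ splice site. The U2 small nuclear ribonucleoprotein (snRNP) then replaces SF1, pairing its RNA with the branch site so that the branch adenosine bulges out. SF3a and SF3b are the protein parts of U2 that make this pairing stable. These proteins act on nearly all introns, those of their own genes included.

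At 6 months 4 groups of 3 libraries each were compared, all littermates from a cross of N40K-Tg +/- with FAD +/- mice: wild type (WT), N40K, 5xFAD and dTg. The N40K transgene encodes an N-terminal piece of U1-70K, which belongs to the snRNP that binds the 5′ splice site (U1). The 5xFAD line is a transgenic model that forms amyloid plaques, and dTg animals have N40K and 5xFAD together. At 12 months 4 WT libraries were compared with 6 from Tau P301S mice, transgenic for a mutant human tau, all littermates of Tau P301S +/- and WT parents. The promoters that drive the transgenes, the sex of the animals and the number of founder lines are not given in the sources used here. No label says that each library came from its own animal, so p-values measure the spread between these libraries, which may in part be technical.

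The files hold scores only, so neither the cortex label nor transgene expression could be checked against expression levels, and the amount of each transcript is unknown. A group difference in bulk tissue cannot tell fewer cells of a type from less unspliced RNA per cell. The median score over all genes ran from 0.029 to 0.031 in the libraries without N40K and from 0.03 to 0.036 in those with it. N40K replicate 1 (0.036) and dTg replicate 2 (0.035) stood highest. At 12 months the median was 0.013 in WT replicates 1 and 2 and 0.017 in WT replicates 3 and 4. It ran from 0.014 to 0.016 in Tau P301S mice. Read depth behind the scores is unknown, so no interval that needs it is given.

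The 10 genes covered a wide range of scores. In WT mice at 6 months Sf1, the branch-point binding protein, had the highest mean (0.132 ± 0.00608, SD, n = 3, above 81.4% of all genes) and Sf3b3, a propeller-shaped scaffold subunit of SF3b, the lowest (0.0127 ± 0.00115, above 29.6% of all genes). Sf3a2, a zinc-finger subunit of SF3a, stood next to Sf1 at 0.127 ± 0.00351, and the libraries of these 2 genes overlapped. A wide step down led to Sf3b4, an RNA-binding subunit of SF3b, at 0.0503 ± 0.00451, and U2af1 followed at 0.0393 ± 0.00115 with no overlap between the 2. Sf3a1 (0.027 ± 0.001) and Sf3b1 (0.0263 ± 0.00153), the large helical-repeat subunit that grips the branch helix, did not separate. Sf3b2 (0.0187 ± 0.00115) and U2af2 (0.0177 ± 0.000577) overlapped, as did Sf3a3 (0.0133 ± 0.000577) and Sf3b3 at the low end.

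This order ran partly against the length of each gene's introns. By GENCODE M21 the sequence that is intronic in every transcript came to 3071 bases in Sf3b4, 4069 in Sf3a2, 8130 in Sf1 and 9214 in U2af1, the genes with the highest scores, and to 25630 in Sf3b3 and 30943 in Sf3b1. Across the 10 genes the rank correlation of mean score at 6 months with this length was −0.71 (Spearman), and across the 14911 genes matched by Ensembl identifier, 94.9% of the table, it was −0.62. Both are descriptions across genes that share the same libraries. The 10 genes had a median of 14.5 intronic stretches against 9 over all matched genes, with 5 in Sf3b4 and 9 in Sf3a2 at the low end and 23 in Sf3b1 at the high end.

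Overlapping genes limit some of the scores. In that annotation Sf3b3 shares sequence with Cog4 on the opposite strand and with 2 small nucleolar RNA genes on its own strand. Sf3a2 shares sequence with Plekhj1 on the opposite strand, and Sf1, Sf3b2 and Sf3b4 each with an antisense gene. On its own strand Sf3b4 also overlaps a small nucleolar RNA gene, and Sf3a3 overlaps a processed pseudogene and a microRNA gene. The libraries were stranded, but whether the authors' counting used the strand is not stated in those sources, so reads of such partners may be mixed in. Partners on the same strand could not be told apart by strand in any case. Sf3a1, Sf3b1, U2af1 and U2af2 have no overlapping gene.

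The N40K comparison sets the 6 libraries with the transgene against the 6 without, averaged over 5xFAD status. It asks whether a fragment of a U1 protein goes with more unspliced signal in the genes of the next step of intron recognition. Sf1 rose and Sf3b3 fell, and the other 8 genes did not pass the test. Over all genes 11.7% passed in either direction, 10.8% as higher and 0.936% as lower (limma, adjusted p under 0.05 over all 15705 genes), against 1 of 10 and 1 of 10 here. The count of higher genes is therefore near the background. The median change of the 10 genes was 0.023 on the log2 scale, against 0.095 over all genes. All changes are of log2(score + 0.002).

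Sf1 had scores of 0.128, 0.129 and 0.139 in WT and 0.146, 0.128 and 0.13 in 5xFAD libraries. With N40K they were 0.193, 0.155 and 0.151, and in dTg libraries 0.148, 0.182 and 0.19. Every library with the transgene stood above every library without it, by 2 steps of the last decimal at the closest point, between the lowest dTg and the highest 5xFAD library. Over all genes 5.11% were separated upwards in this way. The mean went from 0.133 ± 0.00747 to 0.17 ± 0.0207 (SD, n = 6 each), a rise of 0.34 ± 0.082 (SE) or 1.26-fold with a 95% interval from 1.11 to 1.44 (limma, adjusted p = 0.032).

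Sf1 scores followed the level of the whole library only in part. N40K replicate 1, the library of highest median, also had the highest Sf1 score. At a library median of 0.03, dTg replicate 1 had 0.148, against 0.139 in WT replicate 3 and 0.128 in 5xFAD replicate 2. Divided by the median of its library, Sf1 ran from 4.27 to 4.71 without and from 4.72 to 5.76 with the transgene, so the 2 sides stayed apart by a narrow margin. With each library centred on its median, the change was 0.2 (limma, adjusted p = 0.0541), and without N40K replicate 1 and dTg replicate 2 together it was 0.26 (adjusted p = 0.11). Sf1 also missed the threshold when WT replicate 1 or 2, N40K replicate 1, 5xFAD replicate 2 or 3, or dTg replicate 2 or 3 was left out (adjusted p from 0.0543 to 0.0778 in these 7 cases).

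**Figure D1:**
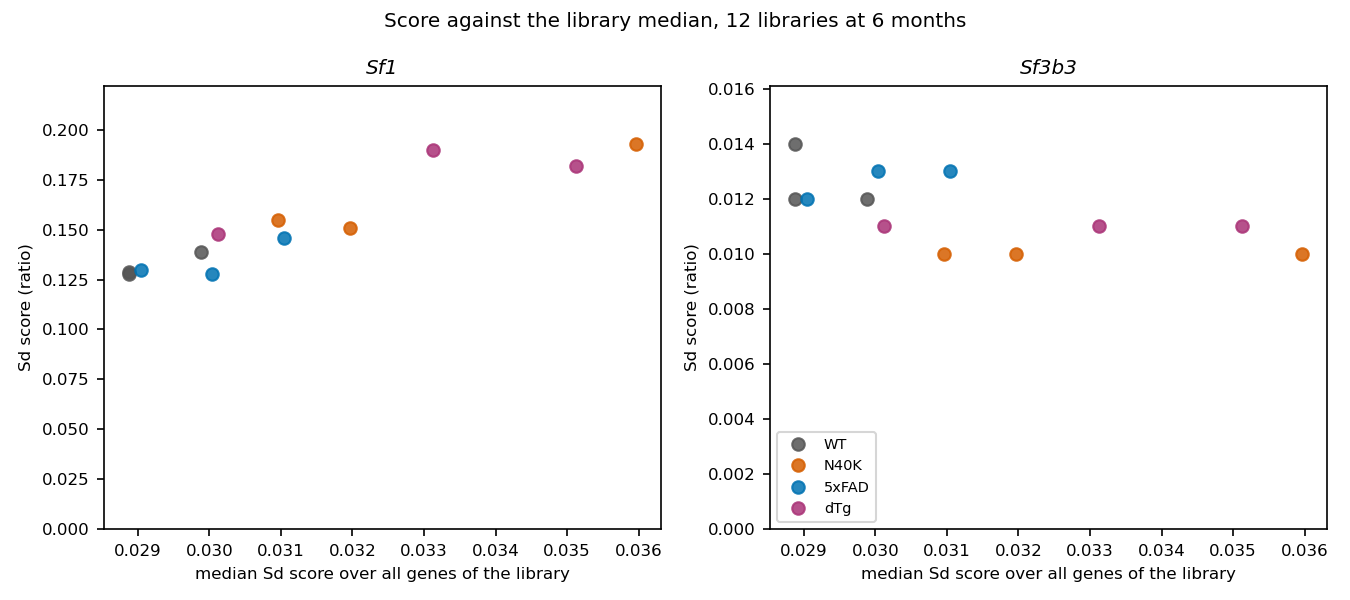
Sd score of Sf1 (left) and Sf3b3 (right) against the median score over all genes of the same library, 1 point per library at 6 months, coloured by group and moved slightly sideways where points coincide. Sf1 is highest where the library median is high (0.193 at a median of 0.036), while Sf3b3 stays at 0.01 or 0.011 in all 6 libraries with N40K whatever their median.

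Sf3b3 moved the other way. Its scores were 0.012, 0.014 and 0.012 in WT and 0.013, 0.013 and 0.012 in 5xFAD libraries. All 3 N40K libraries had 0.01 and all 3 dTg libraries 0.011. The 2 sides did not overlap, with a gap of 1 step of the last decimal, while 0.395% of all genes were separated downwards. The mean went from 0.0127 ± 0.000816 to 0.0105 ± 0.000548 (SD, n = 6 each), a change of −0.23 ± 0.039 (SE) or 0.853-fold with a 95% interval from 0.802 to 0.907 (limma, adjusted p = 0.0125).

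The difference in Sf3b3 kept passing when any 1 of the 12 libraries was left out (adjusted p from 0.0173 to 0.0307) and after centring (−0.37, adjusted p = 0.0103). It rests on a difference of about 2 steps of the last decimal, and rounding hides the spread within the N40K and dTg groups. Sf3b3 lies under a mean score of 0.02, so it has no value where low-scoring genes are left out. The share of its score that comes from the overlapping Cog4 was not tested.

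**Figure D2:**
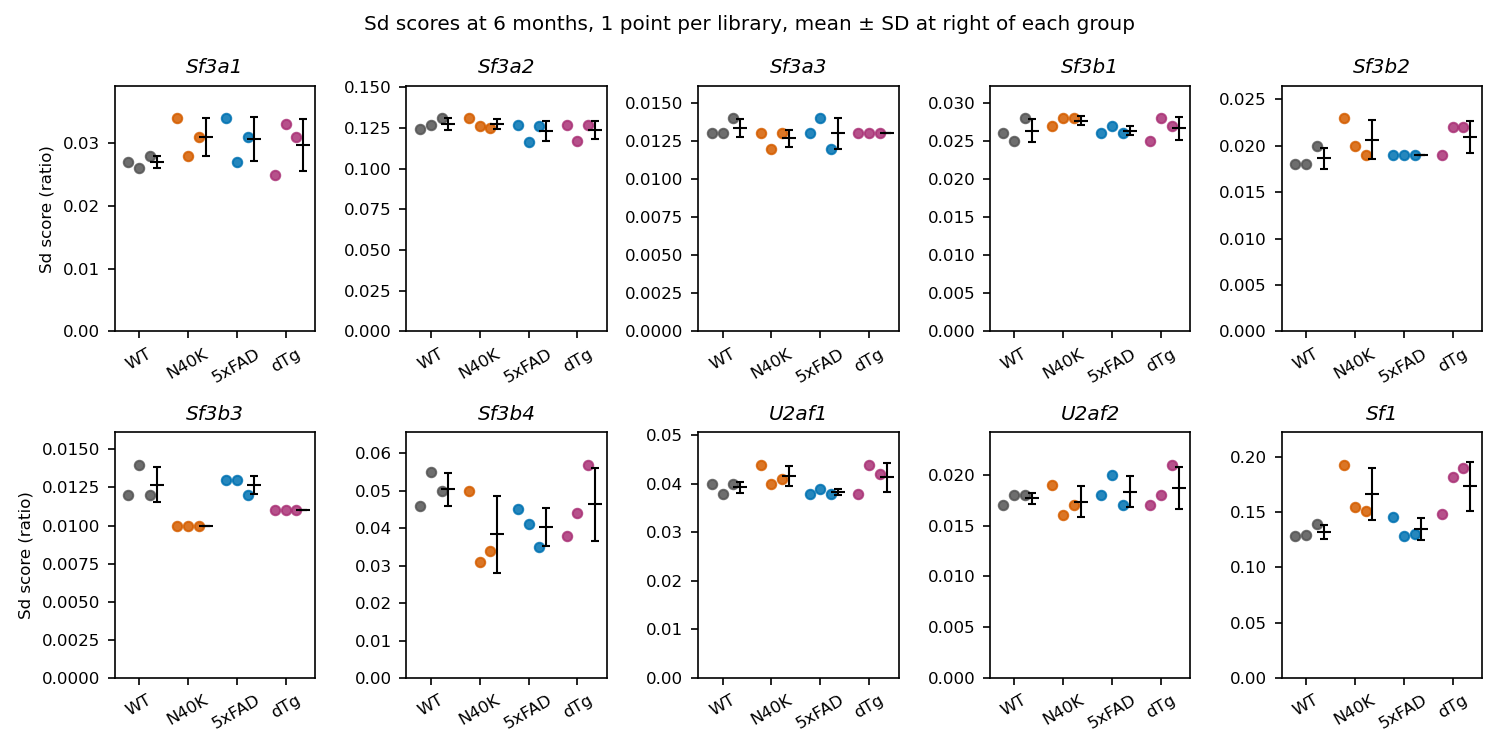
Sd scores of the 10 genes at 6 months, 1 panel per gene with its own vertical axis from 0, 1 point per library and the mean ± SD (n = 3) at the right of each group. Only in the panels of Sf1 and Sf3b3 do the N40K and dTg points lie wholly apart from the WT and 5xFAD points.

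Among the other SF3b genes Sf3b2, which binds Sf3b4, had 0.018, 0.018 and 0.02 in WT, 0.019 in all 5xFAD, 0.023, 0.02 and 0.019 in N40K and 0.019, 0.022 and 0.022 in dTg libraries. The 2 sides overlapped at 0.019 and 0.02, and the averaged change of 0.13 (1.09-fold, limma adjusted p = 0.152, unadjusted p = 0.0412) did not pass. It was the third of 3 members under an unadjusted p of 0.05, a level reached by 29.1% of all genes. Sf3b1 had 0.025 to 0.028 in libraries of both sides (1.03-fold, limma adjusted p = 0.504).

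Sf3b4 varied more than the other 9 genes within the N40K group and within the dTg group, relative to its mean. Its N40K scores were 0.05, 0.031 and 0.034 and its dTg scores 0.038, 0.044 and 0.057, coefficients of variation of 26.6% and 21%. WT libraries had 0.046, 0.055 and 0.05 and 5xFAD libraries 0.045, 0.041 and 0.035. The averaged N40K change was −0.11 with a 95% interval from −0.42 to 0.19 (limma, adjusted p = 0.635), so these libraries limit a change in either direction only loosely.

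The 3 SF3a genes differed little between the sides. Sf3a2 had 0.126 ± 0.00464 with and 0.125 ± 0.00504 without N40K (SD, n = 6 each, 1.00-fold, 95% interval from 0.948 to 1.06). Sf3a3 had 0.0128 ± 0.000408 and 0.0132 ± 0.000753 (0.979-fold). Sf3a1, the largest subunit of SF3a, had 0.0303 ± 0.00333 and 0.0288 ± 0.00306 (1.05-fold, 95% interval from 0.925 to 1.19). None of the 3 passed (limma, adjusted p from 0.624 to 0.979).

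U2AF showed no called change either. U2af1 had 0.0415 ± 0.00235 with and 0.0388 ± 0.000983 without N40K (SD, n = 6 each, 1.06-fold, 95% interval from 0.999 to 1.13, limma adjusted p = 0.179). The 2 libraries with 0.044, the highest, were N40K replicate 1 and dTg replicate 2. U2af2 had 0.018 ± 0.00179 and 0.018 ± 0.0011 (0.998-fold, 95% interval from 0.907 to 1.1). For Sf3a1, Sf3a2, Sf3b1, Sf3b2 and U2af1 the direction of the averaged change depended on the scaling, and turned below 0 when libraries were centred on their medians. Centring moved the median change of all genes from 0.095 to −0.041.

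**Figure D3:**
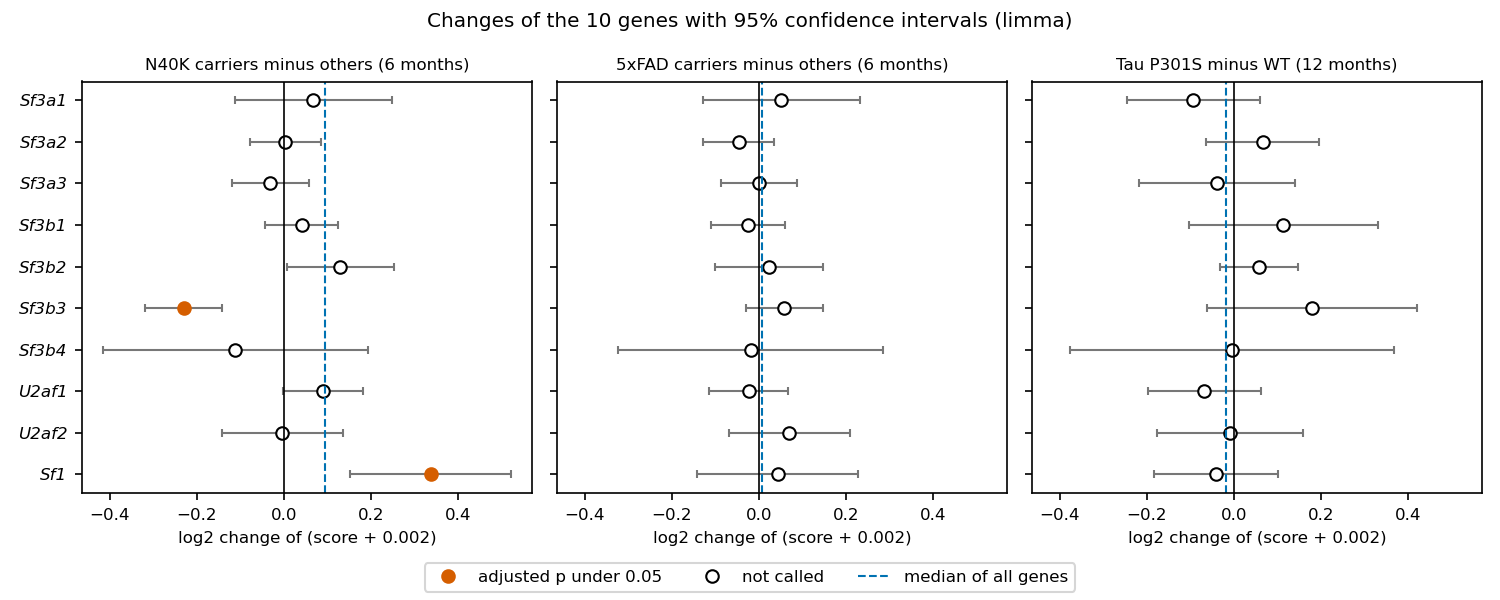
Log2 change of each gene with its 95% confidence interval (limma) for N40K carriers against non-carriers, 5xFAD carriers against non-carriers and Tau P301S against WT. Filled points passed an adjusted p of 0.05, and the dashed line is the median change of all genes of the table. Sf3b3 (−0.23) and Sf1 (0.34) are the filled points, both in the first panel.

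Between single groups of 3 none of the 10 genes passed. For N40K minus WT 0.178% of all genes passed, and 2 of the 10 genes had an unadjusted limma p under 0.05, against 18.9% of all genes: Sf3b3 (0.82-fold, adjusted p = 0.0745) and Sf1 (1.25-fold, adjusted p = 0.185). For dTg minus 5xFAD 0.312% of all genes passed, and the same 2 genes were under the unadjusted level (18% of all genes), with Sf3b3 at 0.887-fold (adjusted p = 0.156) and Sf1 at 1.28-fold (adjusted p = 0.162). For dTg minus WT 1.57% of all genes passed, and Sf3b3 (0.888-fold, adjusted p = 0.119) and Sf1 (1.3-fold, adjusted p = 0.104) were again the 2 under the unadjusted level (22.5% of all genes). In each of the 3 comparisons Sf1 was separated upwards and Sf3b3 downwards. That held for 16.8% and 2.64% of all genes in N40K minus WT, 14.4% and 2.36% in dTg minus 5xFAD, and 18.4% and 3.46% in dTg minus WT. These contrasts share groups, so their values are not independent of each other or of the averaged one.

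The amyloid transgenes went with no called change. Averaged over N40K status, none of the 10 genes passed (limma, none at an unadjusted p under 0.05, a level reached by 6.17% of all genes), and 0.0446% of all genes did. The changes ran from −0.046 in Sf3a2 (0.123 ± 0.00532 with and 0.127 ± 0.00301 without 5xFAD, SD, n = 6 each) to 0.070 in U2af2 (0.0185 ± 0.00164 and 0.0175 ± 0.00105). Sf1 had 0.154 ± 0.0262 and 0.149 ± 0.0242 (1.03-fold, 95% interval from 0.906 to 1.17). Sf3b3 had 0.0118 ± 0.000983 and 0.0113 ± 0.00163 (1.04-fold, 95% interval from 0.98 to 1.11).

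For 5xFAD minus WT none of the 10 genes passed (limma, none at an unadjusted p under 0.05 against 4.39% of all genes, and 0.0191% of all genes called). Sf3b4 alone had separated libraries, 0.035 to 0.045 in 5xFAD and 0.046 to 0.055 in WT (0.807-fold, adjusted p = 1), as did 2.92% of all genes in that direction. For dTg minus N40K none passed either (limma, none unadjusted against 5.14% of all genes, and 0.0191% of all genes called). There Sf3b3 stood at 0.011 in all dTg and 0.01 in all N40K libraries, 1 step of the last decimal (1.08-fold, adjusted p = 0.973), and 2.92% of all genes were separated in that direction.

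The test of whether the N40K change differed with and without amyloid transgenes gave no call among the 10 genes (limma, none at an unadjusted p under 0.05 against 2.87% of all genes, and 0.0191% of all genes called). The smallest p was that of Sf3b4, where the N40K difference was 0.757-fold against WT and 1.13-fold against 5xFAD (interaction 0.58, 95% interval from −0.030 to 1.19, unadjusted p = 0.0601, adjusted p = 1). For Sf1 the 2 N40K differences were 1.25-fold and 1.28-fold (interaction 0.032, 95% interval from −0.34 to 0.40).

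At 12 months none of the 10 genes passed for Tau P301S minus WT (limma, none at an unadjusted p under 0.05 against 8.28% of all genes, and 0.00658% of all genes called). The libraries of the 2 genotypes overlapped in each of the 10, while 0.29% of all genes were separated upwards and 0.994% downwards. Their median change was −0.0070, against −0.018 over all genes. Sf1 had 0.067, 0.063, 0.07 and 0.077 in WT, and 0.062, 0.068 and 0.071 as the lowest, median and highest of the 6 Tau P301S libraries (0.972-fold, 95% interval from 0.881 to 1.07). Sf3b3 had 0.007, 0.007, 0.009 and 0.009 in WT and 0.008, 0.009 and 0.011 in Tau P301S mice (1.13-fold, 95% interval from 0.958 to 1.34, adjusted p = 0.706).

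Other genes were as close at 12 months. Sf3b2 had 0.025, 0.024, 0.026 and 0.024 in WT and 0.025, 0.026 and 0.027 as lowest, median and highest with Tau P301S (1.04-fold, 95% interval from 0.979 to 1.11). Sf3b1 had 0.0173 ± 0.00299 in WT (SD, n = 4) and 0.0187 ± 0.00121 in Tau P301S mice (SD, n = 6). Sf3a1 had the most negative change (−0.093, 0.0183 ± 0.00126 and 0.017 ± 0.00141), Sf3a2 stood at 1.05-fold, U2af1 at 0.954-fold and U2af2 at 0.993-fold. Sf3b4 was spread from 0.011 to 0.016 in WT and from 0.008 to 0.015 in Tau P301S mice (0.997-fold, 95% interval from 0.77 to 1.29), and Sf3a3 stood between 0.007 and 0.01 (0.974-fold).

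**Figure D4:**
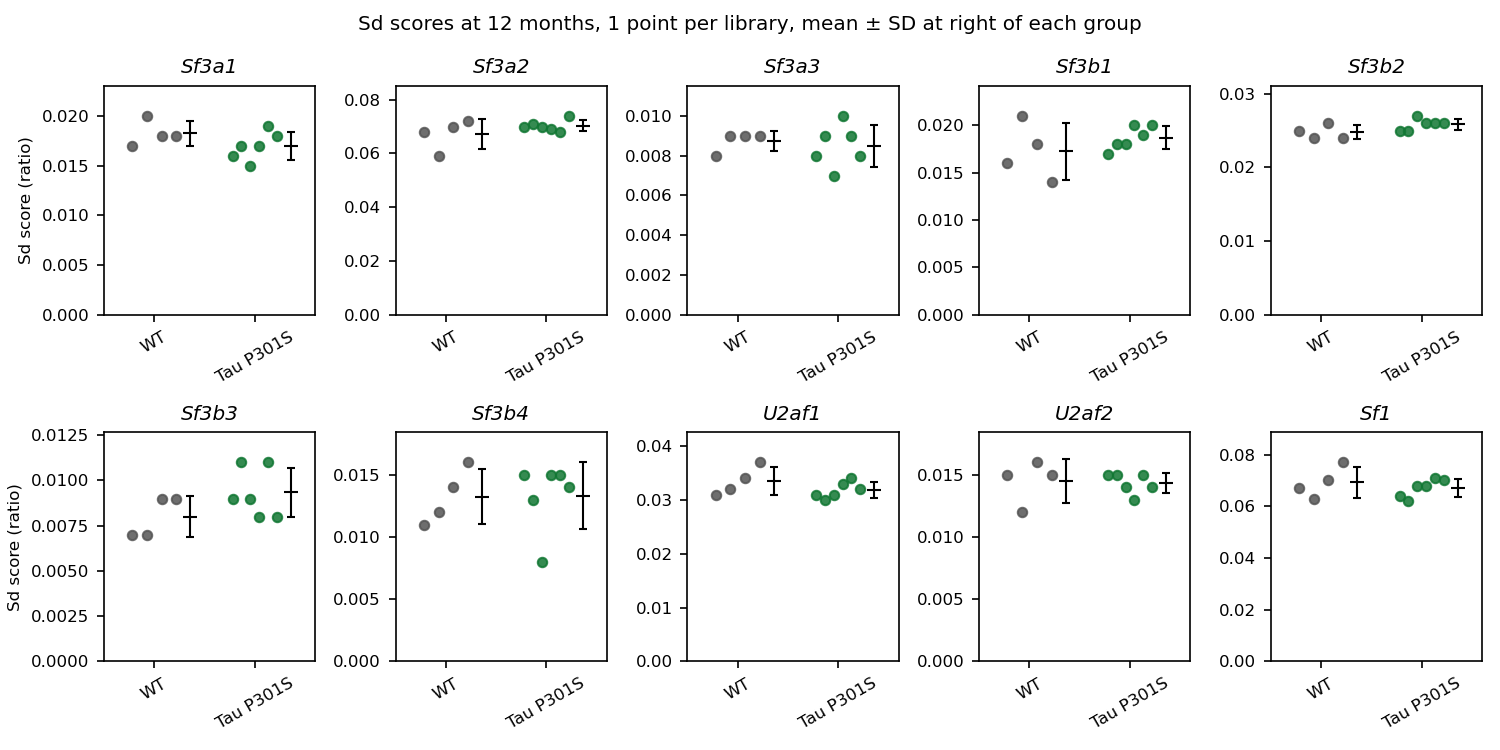
Sd scores of the 10 genes at 12 months, 1 panel per gene with its own vertical axis from 0, 1 point per library and the mean ± SD at the right of each group (n = 4 WT, n = 6 Tau P301S). In each panel the points of the 2 genotypes overlap. In the panel of Sf3b4 a Tau P301S library at 0.008 lies apart from the others at 0.013 to 0.015.

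Sf3b2 held another place at 12 than at 6 months. The 2 tables may have been made separately, so no test was made across them. In WT mice the mean of 9 of the 10 genes was lower in the 12-month table, from 0.263 times the 6-month value in Sf3b4 to 0.852 times in U2af1, as were 72.6% of the 12948 genes found in both tables by symbol. Sf3b2 went the other way, from 0.0187 to 0.0248 (1.33 times), and from above 38.4% to above 61.3% of all genes. Sf3b4 fell in rank from above 62.7% to above 46.2%, while Sf1 (81.4% and 81.1%) and Sf3a2 (80.8% and 80.6%) stayed close to theirs. These shares are over the 15705 genes at 6 months and the 15192 at 12 months, which are not the same set. The rank correlation of the 10 WT means between the tables was 0.78 (Spearman), a description over genes.

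Other proteins of the U2 snRNP and other factors at the branch site were taken from 2 lists. Of 12 U2 snRNP proteins (Sm proteins, the U2-specific Snrpa1 and Snrpb2, and small SF3b subunits) 11 had scores, and none passed in the N40K comparison, against 11.7% of all genes (limma, 2 at an unadjusted p under 0.05, a level reached by 29.1% of all genes). The changes ran from −0.22 in Snrpg to 0.2 in Snrpd1, with a median of 0.054. After centring Snrpg passed as lower (−0.36, limma adjusted p = 0.0302), when 528 of all genes were called lower. Of 18 U2-associated factors 17 had scores and 1 rose, against 10.8% of all genes. At an unadjusted p under 0.05 there were 7, against 29.1% of all genes, and the median change was 0.077, against 0.095 over all genes. Sf3b5 and Zrsr1 had no score under the symbols searched for, so they could not be analysed.

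The gene that rose was Dnajc8, a J-domain co-chaperone found with spliceosomes. It went from 0.0122 ± 0.00117 without to 0.0168 ± 0.00264 with N40K (SD, n = 6 each, 1.32-fold, 95% interval from 1.14 to 1.54, limma adjusted p = 0.0313), and the 2 sides met at 0.014. It missed the threshold after centring (adjusted p = 0.0547), when N40K replicate 1 and dTg replicate 2 were both dropped (0.0751) and in 8 of 12 cases of 1 library left out: each WT library, N40K replicates 1 and 3, 5xFAD replicates 1 and 3, and dTg replicate 2 (adjusted p from 0.054 to 0.0749). Smndc1, a Tudor-domain factor of U2 assembly, had 0.0278 ± 0.00279 without and 0.036 ± 0.00603 with N40K (1.27-fold, adjusted p = 0.0793).

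Neither list had a called gene for 5xFAD averaged over N40K status (limma, 0 of 11 and 1 of 17 at an unadjusted p under 0.05, against 6.17% of all genes) or for Tau P301S minus WT (2 of 11 and 2 of 17 unadjusted, against 8.28% of all genes). All 11 U2 snRNP proteins had a change below 0 in Tau P301S mice, as did 53.9% of all genes. Their median was −0.15 against −0.018 over all genes, with a range from −0.37 in Snrpe to −0.032 in Snrpb2. The libraries of the 2 genotypes overlapped in each of these 11 genes, and the cause of the shared direction was not tested. Dnajc8 had the smallest p of both lists there, with 0.006 to 0.007 in Tau P301S and 0.008 to 0.009 in WT mice (0.829-fold, adjusted p = 0.302).

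The genes whose scores ran most like those of Sf1 over the 12 libraries at 6 months were Wiz (Pearson's r = 0.988), Mon1a (0.973) and Inpp1 (0.97), out of 7407 named genes with a mean score of at least 0.02. For Sf3b3 they were Gemin4 (0.893), Pnpla1 (0.882) and Fnbp4 (0.871). These values describe the 12 libraries, which share group and library-wide level.

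Marker genes of cell types were read for their scores as well. In the N40K comparison 1 of 7 neuron markers (Snap25, 1.36-fold) and 2 of 8 astrocyte markers (S100b and Slc1a2) rose, Olig2 of 5 oligodendrocyte and Tek of 3 endothelial markers fell, and 0 of 5 microglia markers passed (limma, 1 unadjusted). Over all genes 10.8% were called higher and 0.936% lower. In all 6 libraries without N40K the score was 0.003 in Snap25, 0.002 in S100b and 0.003 in Slc1a2. With N40K these ran from 0.004 to 0.006, from 0.002 to 0.003 and from 0.003 to 0.004. The 3 rises are a few steps of the last decimal at most, and rounding hides the spread without N40K. After centring, S100b (limma, adjusted p = 0.131) and Slc1a2 (0.646) no longer passed. In the 5xFAD comparison Cd68, a lysosomal protein of microglia, fell (0.701-fold), 1 of 5 microglia markers, against 0.0446% of all genes called, and it missed the threshold after centring (limma, adjusted p = 0.0594). The part of cell makeup in the Sf1 and Sf3b3 differences was not tested.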

How the data were processed

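Poly(A) RNA of mouse cortex was sequenced as stranded paired-end libraries, per the labels' protocols. The deposited Sd scores are a linear ratio for each gene in each library, given to 3 decimals by the authors. Per the submitters' processing notes, the build was mm9 and the tools were bedtools 2.16.1, BWA, STAR and CASAVA. The score's formula, annotation and read counter are not given in the sources used here, and depth is unknown. GENCODE M21 is on another build and served for intron lengths and overlaps by Ensembl identifier, so no coordinates are printed.

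Each table was fitted alone on log2(score + 0.002), the pseudocount being the 5th percentile of the scores above 0, with limma 3.58.1 in R 4.3.3 (1 term per group, 8 residual and 1.2 or 1.11 prior degrees of freedom). Tests were two-sided, with Benjamini-Hochberg adjustment over all genes of a table and a threshold of 0.05. The script was tested on simulated data. Alternatives were other pseudocounts (0.01 and 0.0005), median-centring, a mean score of at least 0.02, eBayes with a trend, only the groups compared, the replicate number as a block and leaving out each library. Leaving out both libraries of highest median was added after seeing the data.

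The members and gene lists were chosen with earlier results of these data known. All 10 members are named, as are other genes of the 2 lists that passed in the N40K, 5xFAD or Tau P301S comparison, and the 3 genes most like each member that passed. Smndc1, and the genes named for the ends of a range or the smallest p of a list, were chosen after their values were seen, as were the cell type markers that passed.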

Additional observations from a re-analysis of the deposited data

Results flagged for a closer look

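Of the 20 sets of 4 or 6 libraries tested at 12 months (10 genes in 2 genotypes), 2 held a library far from the others by Dixon's criterion. Its usual rate of about 1 in 20 by chance is for unrounded values and does not hold for these rounded scores. For Sf3b4 Tau P301S replicate 3 had 0.008, against 0.013 to 0.015 in the other 5 Tau P301S libraries. For Sf3a3 WT replicate 1 also had 0.008, against 0.009 in the other 3 WT libraries, a difference of 1 step of the last decimal. The criterion always flags a library that differs when all the others tie.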

How the results depend on the processing

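In the N40K comparison the number of the 10 genes called was 2 and became 1 after centring (Sf3b3), with a mean score of at least 0.02 (Sf1), with the replicate block (Sf3b3) and without both libraries of highest median (Sf3b3). It was 1 to 2 when 1 library was left out. It was 0 in the other 8 comparisons under each alternative run. Labels share replicate numbers across groups but state no shared litter or day. Deviations of same-numbered libraries had r from −0.20 to 0.071 in 18 pairs at 6 months and −0.27 to 0.19 in 4 pairs at 12 months. Other pairs across groups ran from −0.14 to 0.16 and from −0.24 to 0.32. Same-numbered libraries were thus no more alike than others, so the numbers were not used as pairs. With the replicate block Sf1 had a limma adjusted p = 0.0745, Dnajc8 0.0658 and Sf3b3 0.0311, and 889 genes were called in place of 1838. The count over all genes was 832 with a mean score of at least 0.02, 749 without both libraries of highest median and 813 to 2352 with 1 library left out. Centring gave 713 higher and 528 lower in place of 1691 and 147. In other comparisons it ranged from 0 to 38 against 7 (5xFAD averaged), 0 to 22 against 3 (interaction), 0 to 254 against 28 (N40K minus WT), 0 to 27 against 3 (5xFAD minus WT), 30 to 294 against 247 (dTg minus WT), 0 to 170 against 49 (dTg minus 5xFAD), 0 to 34 against 3 (dTg minus N40K) and 0 to 5 against 1 (Tau P301S).

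Directions turned only in genes that were not called in the same comparison. After centring, the N40K change was −0.068 in Sf3a1, −0.13 in Sf3a2, −0.094 in Sf3b1, −0.0057 in Sf3b2 and −0.045 in U2af1, and the Tau P301S change 0.016 in Sf3b4 and 0.010 in U2af2. Sf3b4 had 0.00072 with a pseudocount of 0.01 (Tau P301S). Without both libraries of highest median, Sf3b4 had 0.093 (5xFAD) and Sf3a1 −0.0031 (N40K). With 1 library left out, the change ran from −0.017 to 0.023 in Sf3a2 and −0.043 to 0.026 in U2af2 (N40K), from −0.0032 to 0.060 in Sf3b2, −0.096 to 0.080 in Sf3b4 and −0.046 to 0.0045 in U2af1 (5xFAD), and from −0.079 to 0.0045 in Sf3a3, −0.077 to 0.11 in Sf3b4, −0.087 to 0.034 in U2af2 and −0.084 to 0.010 in Sf1 (Tau P301S). The cause was not tested.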
